A study of Danio rerio with 12 samples.

Results

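The loss of desmin was compared between 2 muscles of the adult zebrafish: does the same mutation move a gene differently in extraocular muscle (EOM), whose fibres turn the eyeball, and in trunk muscle, which drives swimming? The quantity reported is the genotype-by-tissue interaction, the mutant-minus-WT log2 difference in trunk minus the mutant-minus-WT log2 difference in EOM. A value above 0 means that a gene stood higher, relative to WT, in mutant trunk than in mutant EOM. All 12 of the 12 libraries of the series entered it, 3 in each of 4 groups, and 20041 of 32520 genes had enough reads to be tested. The groups were WT EOM, mutant EOM, WT trunk and mutant trunk. All fish were of the AB strain and 5 months old. WT fish came from the line in which the mutant was made, and mutant fish carried the genotype desma-/-;desmb-/-, so both zebrafish desmin genes were mutated in every cell of the animal and not in muscle alone. RNA came from dissected muscle, and a library holds the RNA of every cell in the dissection, although the labels name myofibres. In such bulk samples, fewer cells of a type and less RNA per cell cannot be told apart. The labels number the samples of a group 1 to 3 without saying whether a number is 1 fish or a pool, so p-values measure only the spread between these samples. Where the series' design text has a knock-down sampled at 2 ages, the sample labels list double mutants of 1 age only, and the labels were followed.

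Desmin is the main intermediate filament of muscle. Its filaments link the Z-discs of neighbouring myofibrils to each other, to the costameres at the cell membrane, to mitochondria and to nuclei, and mutations of the human gene cause myopathy of skeletal and heart muscle. Extraocular muscles are spared in several muscular dystrophies that disable limb and trunk muscle, and they differ from those muscles in fibre types, in innervation and in embryonic origin. The study asked why EOM resists, and its title singles out fhl2b, whose FHL family of LIM-domain proteins acts as adaptors in sarcomeres and in signalling.

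The libraries held 64.5 to 91.1 M reads on the strand of a gene, and 19402 to 24467 genes had at least 1 read. Posterior Hox genes, which mark the trunk, summed to 83.4 to 132 CPM (reads per 1 M reads of the library, after TMM scaling) in the 6 trunk libraries and to 0.0314 to 0.309 CPM in the 6 EOM libraries. Photoreceptor and retina markers summed to 41.7 to 81.5 CPM in EOM and to 2.49 to 4.96 CPM in trunk. Replicate 3 of EOM stood apart in both genotypes: the summed CPM of oxidative phosphorylation genes was 19700 in WT EOM replicate 3 and 13900 in mutant EOM replicate 3, against 31000 to 44700 in the other 4 EOM libraries. These 2 libraries also had the highest TMM factors (1.68 and 1.80), which divide their CPM. As a share of library totals, before that scaling, WT EOM replicate 3 did not lie below mutant EOM replicate 1. WT trunk replicate 1 stood apart in neuronal genes. It had the highest trunk value for 18 of 26 tested neuron and Schwann cell markers, and for 12 of them at least 3 times every other trunk library, as for snap25a (23.4 CPM against 0.75 to 2.52 CPM). Mutant trunk replicate 2 had the fewest genes with a read (19402) and the lowest TMM factor (0.555, against 0.639 to 1.80 in the other 11 libraries).

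The 2 desmin genes were read first, since they check the labels. The desma level was 1340, 748 and 509 CPM in WT and 26.2, 23.8 and 18.2 CPM in mutant EOM, with 644, 575 and 519 CPM in WT and 62.7, 36.8 and 36.7 CPM in mutant trunk. Every mutant library lay below every WT library in both muscles. The log2 difference was −5.25 in EOM and −3.67 in trunk, and both fell past the threshold of an adjusted p of 0.05 in edgeR's quasi-likelihood test (adjusted p 0.00021 and 0.00289). The transcript thus stood lower in EOM than in trunk relative to WT, by an interaction of 1.57 (SE 0.56) that did not pass (p 0.0133, adjusted p 0.934). desmb had 0 to 12 reads in every library and was not tested.

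Across all genes, only prg4a and myo5b responded to the mutation differently in the 2 muscles by the test. They made up 2 of 20041 genes (0.00998% called, adjusted p under 0.05), both with an interaction above 0. An unadjusted p under 0.05 was reached by 887 genes (4.43%), 492 above 0 (2.45%) and 395 below 0 (1.97%), where 5% would fall there if no gene differed and p-values were evenly spread. The median interaction over all tested genes was −0.03, and 48.4% of genes lay above 0. Its median standard error was 0.70 on the log2 scale, larger than the 0.49 and 0.50 of the effect within EOM or within trunk, because it adds the spread of all 4 groups. The count was 1 without WT trunk replicate 1 or 2 and 3 without mutant EOM replicate 3 or mutant trunk replicate 1.

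**Figure D1:**
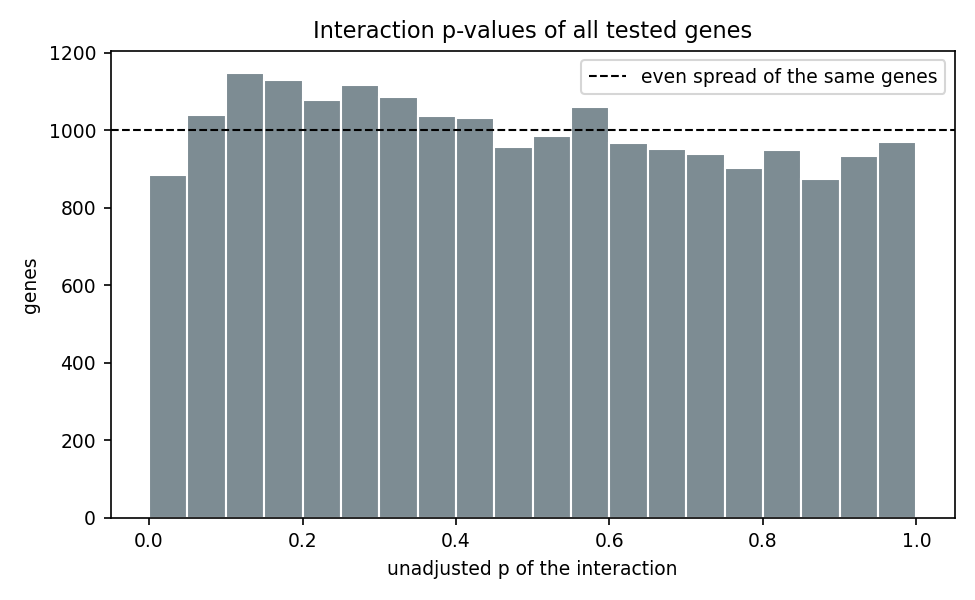
Histogram of the unadjusted p-values of the interaction over the 20041 tested genes, in 20 bins of equal width; the dashed line is the 1002 genes per bin of an even spread. The lowest bin held 886 genes, below that line.

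prg4a (ENSDARG00000010482.8) encodes lubricin, the lubricating proteoglycan of joints and tendon sheaths. Its level was 11.6, 13.3 and 9.32 CPM in WT and 0.928, 1.46 and 1.17 CPM in mutant EOM, with 0.58, 0.65 and 0.679 CPM in WT and 1.51, 1.5 and 1.19 CPM in mutant trunk. Every mutant EOM library was below every WT EOM library, every mutant trunk library was above every WT trunk library, and the mutant levels of the 2 muscles overlapped. The gene fell by 3.26 on the log2 scale in EOM (SE 0.35, adjusted p 0.000807). Its trunk difference of 1.13 (SE 0.34) did not pass on its own (adjusted p 0.246), and the interaction was 4.40 (SE 0.48, adjusted p 0.00308). The trunk values rested on 46 to 92 reads a library.

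myo5b (ENSDARG00000062003.7) encodes a class 5 unconventional myosin, a motor that carries recycling vesicles along actin. In WT EOM its level was 1.89, 1.64 and 1.31 CPM and in mutant EOM 0.177, 0.0314 and 0.144 CPM. In WT trunk it was 7.4, 6.28 and 10.3 CPM and in mutant trunk 13.6, 17 and 16.9 CPM. By these CPM the direction was opposite in the 2 muscles, again without overlap of the genotypes in either. The distance between EOM and trunk was wider in mutants than in WT. The trunk direction depends in part on the scaling. As shares of library totals, before TMM factors, the trunk values overlapped between genotypes. The gene fell by 3.72 in EOM (SE 0.46, adjusted p 0.00211), its trunk difference was 0.98 (SE 0.39, adjusted p 0.422), and the interaction was 4.71 (SE 0.60, adjusted p 0.0103). The mutant EOM values rested on 12, 2 and 20 reads. Without WT trunk replicate 1 or 2 the interaction was 4.66 and 4.65 and missed the threshold (adjusted p 0.0742 and 0.0574), and it missed it as well without both EOM replicates 3 (5.06, adjusted p 0.0546). The miss was wider in limma-voom with sample quality weights (4.86, adjusted p 0.673). It was also wider in edgeR with library totals alone in place of TMM factors (4.24, adjusted p 0.699).

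The third smallest p belonged to myhb, a myosin heavy chain gene of the fast type. Its level was 32.2, 30.1 and 74 CPM in WT and 49, 26 and 101.9 CPM in mutant EOM, with overlap. In WT trunk it was 1.02, 1.11 and 1.14 CPM, and in mutant trunk 19.09, 47.16 and 40.23 CPM, so mutant trunk reached the range of EOM. The gene rose by 5.02 in trunk (SE 0.57, adjusted p 0.0026) and its EOM difference was 0.38 (SE 0.48, adjusted p 0.948). The interaction of 4.65 (SE 0.72) missed the threshold (adjusted p 0.065). It passed when same-numbered EOM libraries were treated as pairs (4.74, adjusted p 0.00412), a pairing read from their shared deviations and not stated by the labels. It also passed without mutant EOM replicate 3 (adjusted p 0.0279), without mutant trunk replicate 1 (0.0444) and without both EOM replicates 3 (0.0399). The other 10 omissions of 1 library missed it (adjusted p 0.0744 to 0.587). Myosin heavy chain genes form near-identical copies, and reads that map to several of them are not counted, so the split between copies is uncertain.

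**Figure D2:**
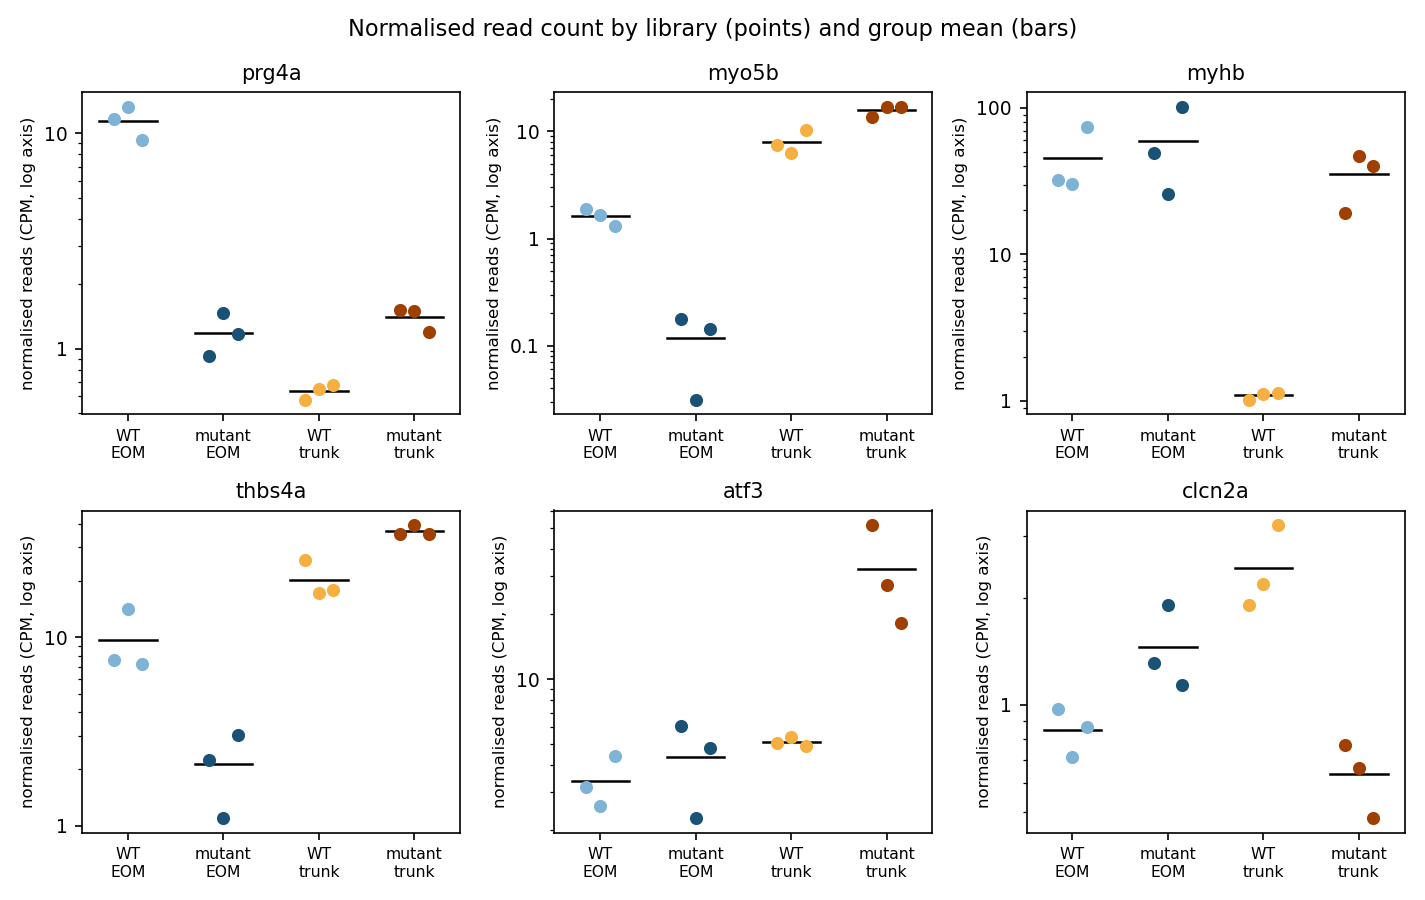
Normalised read count (CPM, log axis) of prg4a, myo5b, myhb, thbs4a, atf3 and clcn2a in each of the 12 libraries; points are libraries and bars are group means of 3. For prg4a, myo5b and thbs4a the mutant points lie below WT in EOM and above WT in trunk, for myhb and atf3 the genotypes are apart in trunk and overlap in EOM, and clcn2a has the opposite pattern to prg4a.

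The 12 named genes with the smallest p on each side, prg4a, myo5b and myhb among those above 0, show the shape of the interaction. Adjusted p ran from 0.00308 to 0.934 above 0 and from 0.707 to 0.934 below 0, and beyond prg4a and myo5b none passed in edgeR's test, so the other values are descriptions. Of the 12 above 0, 10 had effects of opposite sign in the 2 muscles, and in 8 the genotypes did not overlap in either muscle and moved opposite ways. Of the 12 below 0, 11 had opposite signs and 4 were without overlap in both muscles in opposite ways. Over all tested genes, 43.4% had effects of opposite sign. Of these tested genes, 68 (0.339%) lay above WT in trunk and below WT in EOM without overlap and 51 (0.254%) the reverse. On the same side in both muscles without overlap lay 632 (3.15%). Lack of overlap in the named genes rests in part on the TMM factors. As shares of library totals, before those factors, the trunk values of myo5b, thbs4a, ptpn6 and chmp5b overlapped between genotypes. So did the EOM values of c3a.1, ptpn6, wdr95 and chmp5b above 0, and of clcn2a, frem2b, herc7 and ca6 below 0. Genes picked for a large difference between 2 effects will often have effects of opposite sign, and the rule for naming used that difference.

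Matrix, lipid and immune genes stood among those above 0. thbs4a, a thrombospondin of the family whose member thrombospondin 4 sits in tendon and muscle matrix, had 7.6, 14.1 and 7.24 CPM in WT and 2.24, 1.1 and 3.04 CPM in mutant EOM, against 25.8, 17.1 and 17.8 CPM in WT trunk and 35.3, 39.4 and 35.4 CPM in mutant trunk. It fell by 2.17 in EOM (adjusted p 0.0457, and 0.0679 with the EOM libraries paired), stood 0.86 higher in mutant trunk (adjusted p 0.473), and had an interaction of 3.03 (SE 0.54, adjusted p 0.246). The tendon transcription factor scxa was likewise without overlap in both muscles (interaction 1.79, p 0.00769). With it and prg4a, 3 tendon and joint genes had a lower CPM in mutant EOM and a higher CPM in mutant trunk. The trunk difference of scxa was 0.57 (adjusted p 0.638), and that of the 3 genes passed in none. As shares of library totals, before TMM factors, the trunk values of thbs4a and scxa overlapped between genotypes. prg4a, thbs4a and scxa were 3 of 27 tested lubricin, tendon and joint genes, of which 13 lay above 0 and 14 below (median −0.04). The members below 0 at p under 0.05 were col2a1a (−3.43, p 0.00885) and fmoda (−2.81, p 0.024). Over all genes, 2.45% lay above 0 and 1.97% below 0 at that p. col2a1a, also listed as a cartilage marker, had 5.07, 2.12 and 0.196 CPM in WT trunk and 0.275, 0.095 and 0.375 CPM in mutant trunk, with overlap. apoda.1, an apolipoprotein D gene, had an interaction of 3.54 (adjusted p 0.629), with 2.28, 2.1 and 3.88 CPM in WT trunk and 8.23, 14.6 and 6.7 CPM in mutant trunk. Its EOM values were at most 20 reads a library. c3a.1, a gene of complement component C3, had 5.29, 7.45 and 9.73 CPM in WT and 3.15, 2.6 and 5.12 CPM in mutant EOM, and 0.492, 0.582 and 0.76 CPM in WT trunk and 1.68, 2.49 and 1.14 CPM in mutant trunk (interaction 2.57, adjusted p 0.834). ptpn6, in mammals the phosphatase SHP-1 of blood cells, had 49.6, 45 and 72.4 CPM in WT and 20.5, 10.3 and 30.8 CPM in mutant EOM, whereas trunk had 4.53, 4.53 and 3.21 CPM in WT and 5.38, 13.1 and 6.55 CPM in mutants (interaction 2.46, adjusted p 0.934). In thbs4a and these 3 genes the genotypes did not overlap in either muscle after TMM scaling. The 12 also held etnppl (interaction 2.09), a lyase of ethanolamine phosphate, and znf511 (2.4), a zinc finger gene. They further held wdr95 (3.46), a WD repeat gene with 0 to 19 reads a trunk library. chmp5b (1.63), of the ESCRT-III membrane scission complex, and atf3, given next, complete the 12.

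In atf3, the last of these 12, and in ankrd1a and phlda3 from the gene lists, the larger difference was in trunk. atf3, a transcription factor induced by cell stress, had 3.17, 2.6 and 4.42 CPM in WT and 6.05, 2.28 and 4.79 CPM in mutant EOM, with 5.06, 5.39 and 4.91 CPM in WT and 51.4, 27.1 and 18.1 CPM in mutant trunk. It rose by 2.65 in trunk (adjusted p 0.0235), differed by 0.37 in EOM with overlap (adjusted p 0.941), and had an interaction of 2.29 (SE 0.59, p 0.00151, adjusted p 0.934). ankrd1a, a titin-binding repeat protein that responds to stretch in mammalian muscle, had 17.2, 10 and 5.13 CPM in WT trunk and 82.6, 31.8 and 78.9 CPM in mutant trunk, against 1.53, 1.3 and 1.57 CPM in WT and 2.68, 0.8 and 3.18 CPM in mutant EOM. Its trunk difference of 2.58 missed the threshold narrowly (adjusted p 0.0628), its EOM difference was 0.60, and its interaction was 1.97 (p 0.0154, adjusted p 0.934). phlda3, a p53 target, had 2.66, 1.94 and 1.69 CPM in WT trunk and 10.9, 11.8 and 8.94 CPM in mutant trunk, a rise of 2.33 (adjusted p 0.0293), and in EOM its difference was 0.84 with overlap (adjusted p 0.716, interaction 1.49, p 0.0169). That a call was made in trunk and not in EOM does not show a difference between the muscles, and the interaction of these 3 genes did not pass.

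Among genes below 0, the lower level was mostly in mutant trunk. clcn2a, a chloride channel gene, had 0.975, 0.713 and 0.867 CPM in WT and 1.31, 1.91 and 1.14 CPM in mutant EOM, with 1.92, 2.19 and 3.22 CPM in WT and 0.773, 0.665 and 0.479 CPM in mutant trunk. Both muscles were without overlap in opposite directions, with an interaction of −2.71 (SE 0.60, adjusted p 0.707). epd, the ependymin gene, named after a secreted brain protein of fish, had 3.22, 1.39 and 4.9 CPM in WT trunk and 0.327, 0.38 and 0.155 CPM in mutant trunk, a fall of 3.50 on the log2 scale (adjusted p 0.0368), while EOM had 88.4, 81.8 and 53.3 CPM in WT and 90.7, 122 and 21 CPM in mutants (interaction −3.56, adjusted p 0.879). frem2b and col18a1a, genes of basement membrane proteins, had interactions of −2.17 and −1.45, and frem2b was without overlap in both muscles in opposite directions. col18a1a had 18.6, 25 and 16.4 CPM in WT trunk and 8.52, 7.25 and 10.2 CPM in mutant trunk, and its EOM values overlapped. herc7, of the HERC ubiquitin ligase family (−2.79), and ca6, a carbonic anhydrase (−2.33), shared this lack of overlap. dbx1a, a homeobox gene of the neural tube, differed from the rest: it had 0.443, 0.296 and 0.199 CPM in WT and 2.21, 1.87 and 0.655 CPM in mutant EOM, a difference of 2.33 (adjusted p 0.0927, and 0.0412 with the EOM libraries paired), with trunk differing by 0.09 (interaction −2.25). sdk2b, an adhesion gene of neurons (−2.75), kif26aa, a kinesin (−2.0), si:dkey-222f2.1 (−2.93) and 2 genes at or near 0 reads in trunk complete the list. Mutant trunk replicate 2 was the lowest of its group for si:dkey-222f2.1 (10.9, 1.14 and 12.8 CPM), sdk2b (0.653, 0.095 and 1.25 CPM) and herc7 (1.56, 0.356 and 2.03 CPM). Without that library their interactions were −2.4, −2.26 and −2.35. Its part in these values was not tested further. The 2 genes near 0 reads were ptprz1a, a receptor phosphatase of glia, and OPN1SW, a cone opsin, with 0 to 28 and 0 to 5 reads a trunk library, so no trunk fold is given. Both are read here beside the eye and nerve markers that differed between the EOM and trunk dissections, and the part of those cells in their values was not tested.

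**Figure D3:**
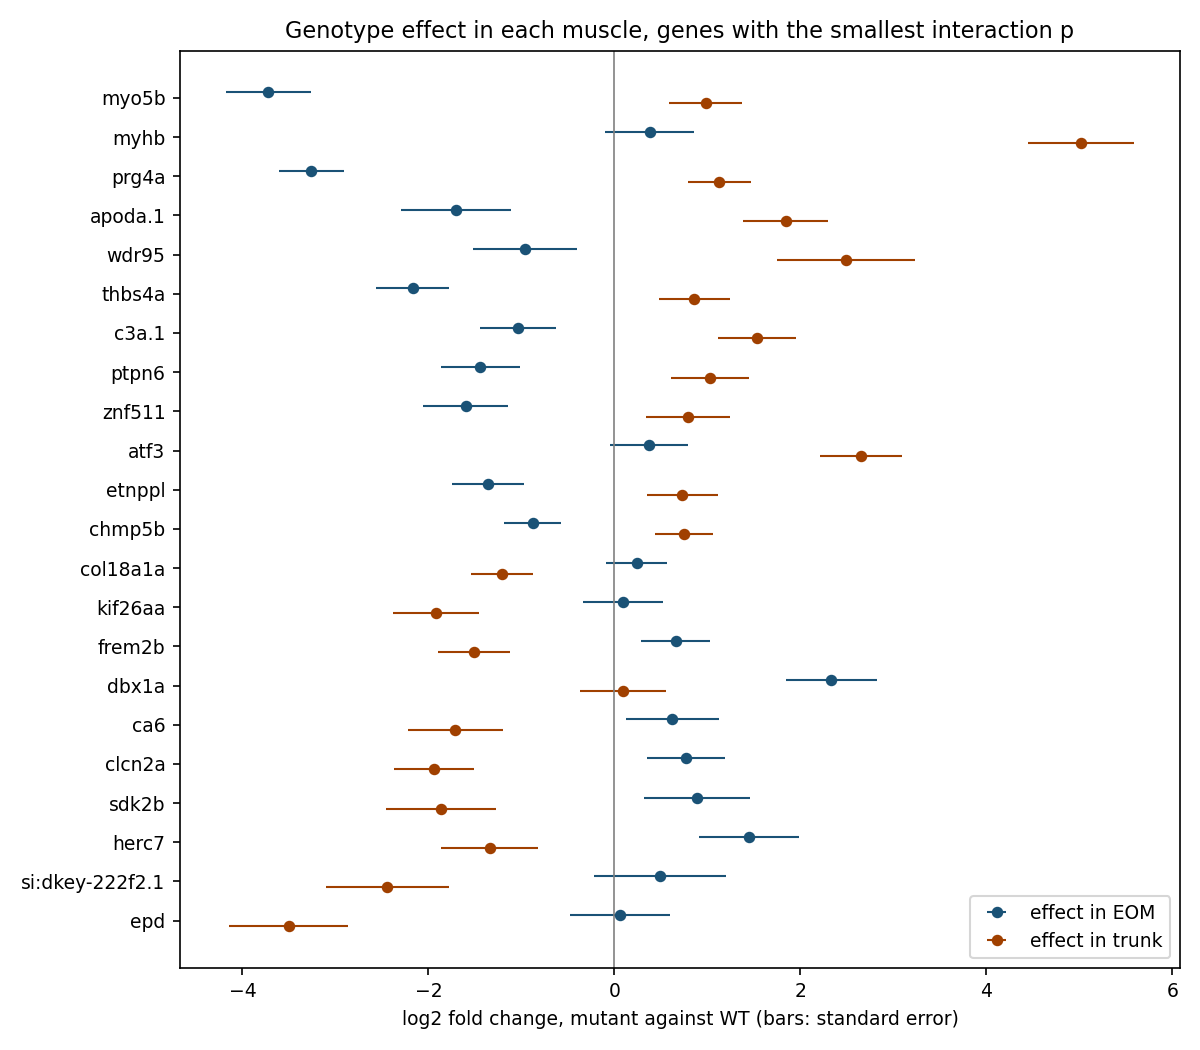
Mutant-minus-WT log2 difference in EOM and in trunk, with its standard error, for 22 of the 24 named genes with the smallest interaction p; 3 libraries a group. ptprz1a and OPN1SW, at or near 0 reads in trunk, are left out. In 10 of the 12 genes above 0 the EOM point lies left of 0 and the trunk point right of it, in myhb and atf3 both lie to the right, and among the genes below 0 dbx1a has its trunk point near 0 and its EOM point at 2.33.

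The study's named gene was in neither set. fhl2b had 104.8, 95.5 and 127 CPM in WT and 220, 219 and 244 CPM in mutant EOM, without overlap, and 4.58, 6.32 and 5.03 CPM in WT trunk and 8.34, 7.65 and 5.16 CPM in mutant trunk, with overlap. Its log2 difference was 1.06 in EOM (SE 0.30, p 0.00267, adjusted p 0.315) and 0.41 in trunk (SE 0.30, adjusted p 0.649), and the interaction of −0.65 (SE 0.42, p 0.138, adjusted p 0.934) did not pass. Its value lay between −1.1 and −0.44 in all 24 alternative fits. The other 6 FHL genes tested gave no call either. For fhl2a the interaction was −0.02 (SE 0.54), with a sign that 16 of the 24 alternatives kept. fhl1a stood 1.08 higher in mutant trunk without overlap (18.4, 23.4 and 24.4 CPM in WT, 57.6, 46.6 and 35.6 CPM in mutants; adjusted p 0.298) and 0.32 higher in mutant EOM, an interaction of 0.76 (SE 0.50). For fhl5 it was 0.31 (SE 0.62), and the median over the 7 genes was 0.02.

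The genes called within a muscle mostly went the same way in the other. In this fit 34 genes passed in EOM (0.170%), 13 of them higher (0.0649%) and 21 lower (0.105%) in mutants, and 52 passed in trunk (0.259%), 26 in each direction (0.13% each). Of the 34, 31 had the same sign in trunk and 9 had an interaction p under 0.05. Of the 52, 50 had the same sign in EOM and 21 had an interaction p under 0.05, of which 0 passed after edgeR's adjustment. Over all tested genes, 11353 of 20041 had the same sign in both muscles, and 4.43% had an interaction p under 0.05. The called genes were picked on an effect that is itself part of the interaction. The 16 genes that passed in both muscles had the same sign in each. These counts moved with single libraries, to between 12 and 79 in EOM when each library but mutant EOM replicate 3 was left out in turn. In trunk they were 6 to 34 without WT EOM replicate 2, any of the 3 WT trunk libraries or mutant trunk replicate 1 or 3.

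In the groups of genes considered next, described by how many tested members lay on each side of 0, the all-gene share above 0 was 48.4% and the all-gene median −0.03. Energy genes came first by count. Of 59 genes of nuclear oxidative phosphorylation subunits, which build the respiratory chain and ATP synthase, 56 had an interaction above 0, with a median of 0.48 and a range of −0.56 to 1.27, yet 0 of them had an interaction p under 0.05 by edgeR's test, against 4.43% of all genes. Their median difference was −0.15 in EOM and 0.42 in trunk, where 55 of 59 lay above 0 against 47.3% of all genes. Their summed level was 44700, 31000 and 19700 CPM in WT and 35800, 38200 and 13900 CPM in mutant EOM, with 26800, 28400 and 33300 CPM in WT and 40500, 44500 and 28000 CPM in mutant trunk. The sums overlapped between genotypes in both muscles, and the members move together across libraries, so 56 of 59 is not 59 separate observations. The trunk direction also rests on the scaling. TMM factors, which divide CPM, were 0.639, 0.555 and 0.922 in mutant trunk and 1.00, 0.993 and 0.963 in WT trunk. As shares of library totals, before these factors, the mutant trunk sums all lay below the WT trunk sums. Leaving out 1 library at a time gave a median of 0.11 to 0.80.

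ndufs5, a subunit of complex I, had 457, 234 and 126 CPM in WT and 294, 264 and 83.4 CPM in mutant EOM, with 177, 162 and 235 CPM in WT and 456, 375 and 215 CPM in mutant trunk. Its interaction was 1.22 (SE 0.73, p 0.114), with overlap in both muscles. cox6b1, a subunit of cytochrome c oxidase, rose by 2.08 in trunk, from 12.7, 13.6 and 10.2 CPM in WT to 39.7, 68.4 and 45.9 CPM in mutants (adjusted p 0.0407). It stood 1.1 higher in mutant EOM (adjusted p 0.512). The direction was thus the same in both muscles, and its interaction of 0.97 (SE 0.54, p 0.0923) did not pass. Of 21 citrate cycle genes 16 lay above 0 (median 0.16), and of 28 genes of fatty acid uptake and oxidation 20 (median 0.12), with 0 of either list at p under 0.05. Among 11 regulators of mitochondrial genes the median was −0.07. tfam, which packages and transcribes mitochondrial DNA, was the only one of them with an interaction p under 0.05 (1.26, SE 0.52, p 0.0275), at 27.1, 17.1 and 17.1 CPM in WT and 16.9, 6.24 and 10.6 CPM in mutant EOM. For ppargc1a, the coactivator PGC-1 alpha, the interaction was −0.76 (SE 0.96), with 24.2, 1.05 and 18.3 CPM in mutant trunk, where replicate 2 was low, and −0.21 without that library.

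Glycolysis, glycogen and phosphocreatine genes lay above 0 in 23 of 31 cases (median 0.26), with 0 at p under 0.05. Their summed level was 94600, 77200 and 121000 CPM in WT trunk and 249000, 237000 and 127000 CPM in mutant trunk, without overlap, and 122000, 84100 and 46700 CPM in WT and 109000, 133000 and 48500 CPM in mutant EOM, with overlap. ckmb, a muscle creatine kinase, held much of the trunk sum at 34300, 25400 and 43900 CPM in WT and 105000, 97400 and 47500 CPM in mutants (interaction 1.2, SE 0.78, p 0.145). Mutant trunk replicates 1 and 2 carried the highest values and replicate 3 lay near WT.

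**Figure D4:**
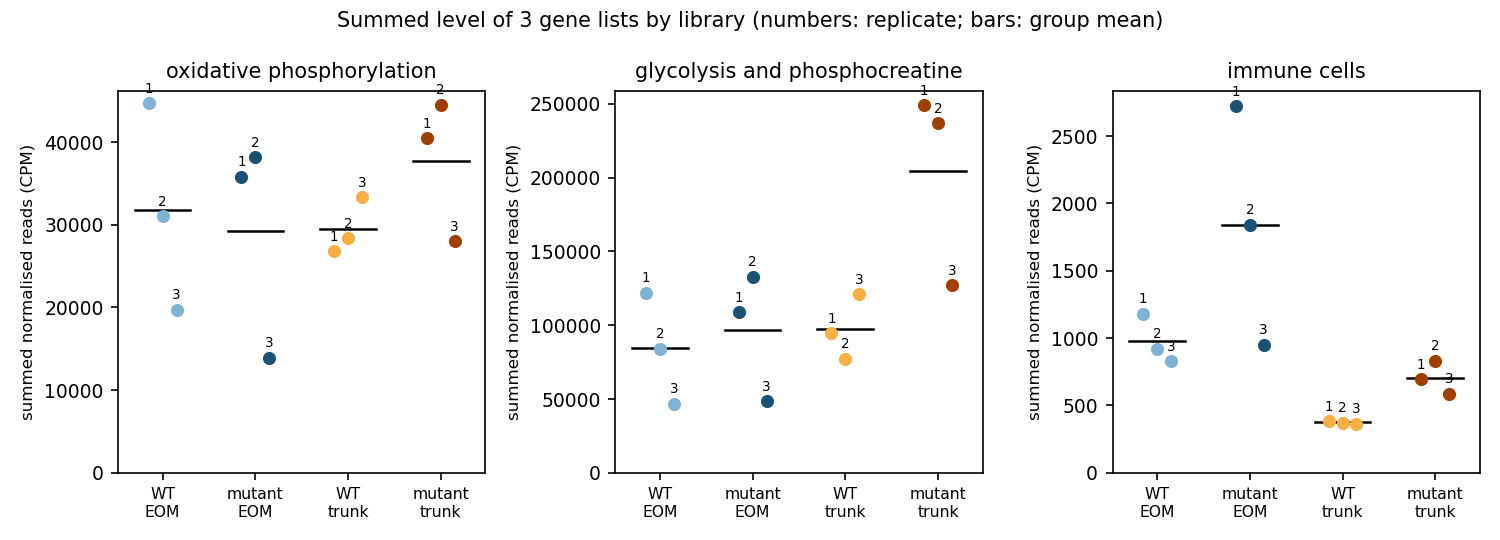
Summed CPM of oxidative phosphorylation, glycolysis and phosphocreatine, and immune cell genes in each library, labelled by replicate number, with a panel for each list and bars at the mean of 3. EOM replicate 3 is the lowest of its group in all 3 panels in both genotypes, and mutant trunk lies above WT trunk without overlap for the glycolysis and immune lists.

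Contractile genes also lay mostly above 0. Of 22 tested fast fibre genes (22 of 32 listed symbols were found) 16 did, with a median of 0.49, and of 33 slow and cardiac-type genes 27 did, with a median of 0.48. In both lists the median difference was below 0 in EOM (−0.19 and −0.25) and above 0 in trunk (0.26 and 0.32). These trunk values also depend on the scaling. As shares of library totals, before TMM factors, the mutant trunk sums of fast fibre genes all lay within the range of WT trunk. Those of slow and cardiac-type genes overlapped WT trunk. Beside myhb, the fast genes at p under 0.05 were myhz1.1 and tnnt3a, with opposite signs, where 2.45% of all genes lay above 0 and 1.97% below at that p. myhz1.1, a fast myosin heavy chain gene and 1 of a set of near-identical copies, had 14900, 12800 and 15300 CPM in WT and 7920, 5050 and 10800 CPM in mutant EOM, without overlap, and 131, 180 and 81.8 CPM in WT trunk and 157, 1000 and 239 CPM in mutant trunk, with overlap (interaction 2.69, SE 0.87, p 0.00741). tnnt3a, a fast troponin T, had 3.72, 2.9 and 2.57 CPM in WT trunk and 0.739, 1.85 and 1.57 CPM in mutant trunk, and its EOM values overlapped (interaction −1.66, p 0.0127). The 4 slow and cardiac-type genes at p under 0.05 were all troponins and all above 0, where 2.45% of all genes lay at that p. tnni1d, a slow troponin I, had 76.2, 99.1 and 138 CPM in WT trunk and 192, 458 and 171 CPM in mutant trunk, and 231, 172 and 202 CPM in WT and 240, 92.7 and 151 CPM in mutant EOM (interaction 1.72, SE 0.62, p 0.0147). The others were tnnt2e (1.59), tnni1b (1.34) and tnnt2b (1.21). The adjusted p of each was 0.934.

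Among 53 genes of intermediate filaments, costameres and Z-discs, desmin's own partners, 26 lay above 0 and 27 below, with a median of −0.02. An interaction p under 0.05 was reached by 6 members, all above 0, where the all-gene share above 0 at that p was 2.45%. These were desma itself, ankrd1a, smtnl1, pdlim3b, krt18b and a gene with the symbol xirp1. smtnl1, a smoothelin-like protein of muscle, had 111.6, 84.3 and 100.2 CPM in WT and 43.1, 17.7 and 71.7 CPM in mutant EOM without overlap, and differed by 0.38 in trunk (interaction 1.54, SE 0.57, p 0.017). For pdlim3b, an actinin-binding Z-disc protein, the difference was in trunk (1.36 against 0.04 in EOM, interaction 1.32, p 0.0236), as for the xirp1 gene, whose protein binds actin at adhesion sites (1.43 against −0.39, interaction 1.82, p 0.0302). krt18b, a keratin gene, was 0.53 lower in EOM and 0.74 higher in trunk (p 0.0272). Beside it, skin and keratinocyte markers summed to 389 to 422 CPM in WT trunk and 466 to 1210 CPM in mutant trunk, pigment cell markers to 19.0 to 22.5 CPM and 35.1 to 47.1 CPM, and endothelium markers to 411 to 540 CPM and 291 to 372 CPM, each without overlap. The skin markers were divided: of 22 tested, 10 lay above 0 in trunk and 12 below (median −0.01), and krt94 and icn held much of their sum. Of 18 tested pigment cell markers 15 lay above 0 in trunk, and of 16 endothelium markers 12 lay below. The part of these cells in the trunk values was not tested. vim, the intermediate filament gene vimentin, stood 1.11 higher in mutant trunk and −0.01 from WT in EOM (interaction 1.12, p 0.0673).

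The membrane and synapse side of the fibre leaned the other way. Of 31 genes of the dystrophin-glycoprotein complex and its glycosylation, which anchor the fibre to the matrix, 10 lay above 0 and 21 below, with a median of −0.27 (0.05 in EOM, −0.35 in trunk). dysf, of membrane repair (−0.96, p 0.0775), utrn, the dystrophin homologue utrophin (−0.84, p 0.0946), and dmd, dystrophin (−0.41), were among those below 0. Of 17 neuromuscular junction genes 6 lay above 0 and 11 below (median −0.25). colq, the collagen tail of acetylcholinesterase, had 10.8, 7.32 and 7.77 CPM in WT trunk and 3.97, 1.16 and 6.79 CPM in mutant trunk, with overlap in EOM (interaction −1.65, p 0.047, and −1.22 without mutant trunk replicate 2). Of 35 genes of calcium handling and excitation-contraction coupling 17 lay above 0 and 18 below (median −0.02), and 0 had p under 0.05.

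Of 41 collagens and matrix genes, 16 lay above 0 and 25 below, with a median of −0.26, and the 5 at p under 0.05 were all below 0, where 1.97% of all genes lay at that p. col12a1b and col12a1a encode collagen XII of tendon and fascia. col12a1b had 27.6, 20.6 and 12.5 CPM in WT trunk and 11.9, 3.94 and 11.5 CPM in mutant trunk, and 3.76, 4.59 and 5.38 CPM in WT and 4.4, 6.75 and 7.99 CPM in mutant EOM (interaction −1.63, SE 0.60, p 0.0153). col12a1a had an interaction of −1.39 (p 0.0232), with 16, 54.8 and 29.5 CPM in mutant EOM against 16.7, 14.3 and 17.3 CPM in WT EOM. The proteoglycans vcana (−2.78, p 0.019) and fmoda (−2.81, p 0.024) and the collagen col11a1a (−2.66, p 0.0368) were the others. Cartilage and bone markers moved beside these genes: 5 of the 18 tested lay above 0 and 13 below, with a median of −1.33, and the median trunk difference was −1.24. Their summed level was 68.6 to 149 CPM in WT trunk and 88.3 to 120 CPM in mutant trunk. matn3a, a cartilage matrilin, had 9.9 and 8.85 CPM in WT trunk replicates 1 and 2 and 0.219 CPM in replicate 3. Neuron and Schwann cell markers had a median of −1.02, with 4 above 0 and 22 below, beside the high values of WT trunk replicate 1. gfap, a glial filament gene, had 27 CPM there and 0.428 to 1.04 CPM in the other trunk libraries. The myelin gene mbpa was less apart, at 278 CPM against 134 to 266 CPM. The part of cartilage and nerve in the interaction values below 0 was not tested.

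**Figure D5:**
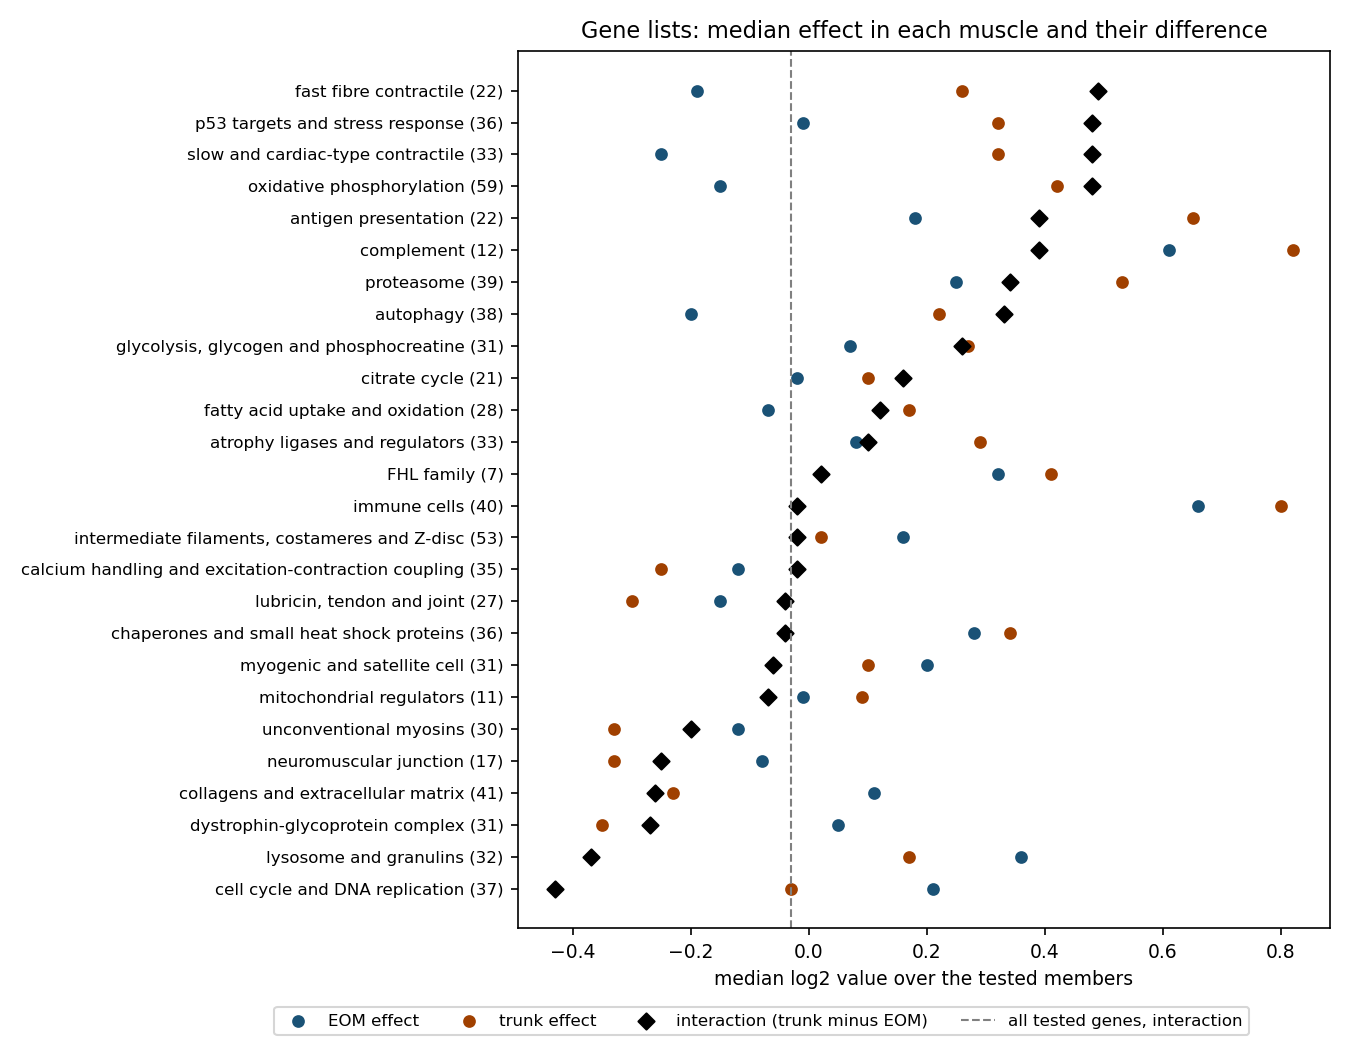
Median log2 value over the tested members of 26 gene lists (number tested in brackets): mutant minus WT in EOM, mutant minus WT in trunk, and the interaction, trunk minus EOM. Contractile, p53 and stress, and oxidative phosphorylation genes have the highest interaction medians (0.48 to 0.49), cell cycle and lysosome genes the lowest (−0.43 and −0.37), and immune genes are high in both muscles with an interaction median of −0.02; the dashed line is the all-gene median of −0.03.

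Immune genes stood mostly above WT in both mutant muscles, and none was called in the interaction. Of 40 immune cell genes, 33 lay above 0 in EOM (median 0.66) and 30 in trunk (median 0.80), where 51.4% and 47.3% of all genes did, and their interaction was above 0 in 19 and below in 21, with 0 at p under 0.05. An unadjusted p under 0.05 above 0 was reached by 12 of them in EOM and 14 in trunk, where 3.09% and 5.48% of all genes reached it. Their summed level was 1180, 921 and 829 CPM in WT and 2720, 1840 and 952 CPM in mutant EOM, which overlapped although the mutant was higher in all 3 same-numbered pairs, and 383, 373 and 364 CPM in WT trunk and 693, 832 and 586 CPM in mutant trunk, which did not. grna, a granulin gene of phagocytes, was without overlap in both muscles in the same direction, at 11.1, 12.1 and 11.2 CPM in WT and 22.4, 46.3 and 35.6 CPM in mutant EOM, and 11.4, 10.5 and 10.1 CPM in WT trunk and 19.6, 16.9 and 22.7 CPM in mutant trunk. Its log2 difference was 1.60 in EOM (adjusted p 0.0536, and 0.0317 with the EOM libraries paired) and 0.88 in trunk (adjusted p 0.31), and the interaction was −0.71 (SE 0.42, p 0.11). Other members of the list went the other way in trunk. csf1rb had 1.29, 1.01 and 0.909 CPM in WT trunk and 0.67, 0 and 0.517 CPM in mutant trunk, without overlap (interaction −1.78, SE 1.18, p 0.152). For il2rga the difference was 1.25 in EOM and −0.42 in trunk, with overlap in trunk (interaction −1.67, SE 0.92, p 0.0883). Of 32 lysosome and granulin genes 10 lay above 0 and 22 below (median −0.37), of 22 antigen presentation genes 17 lay above 0 and 5 below (median 0.39), and of 12 tested complement genes 8 and 4 (median 0.39).

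The remaining lists covered protein turnover, stress and growth. Proteasome subunits lay above 0 in 30 of 39 cases (median 0.34, with 0.25 in EOM and 0.53 in trunk) with 0 at p under 0.05. As shares of library totals, before TMM factors, their trunk sums overlapped between genotypes. psme2, a subunit of the proteasome activator that serves antigen processing, had 30.5, 35 and 31.7 CPM in WT trunk and 55.3, 81.7 and 51.2 CPM in mutant trunk, and its EOM groups overlapped (interaction 0.93, SE 0.46, p 0.0617). Of 38 autophagy genes 26 lay above 0 (median 0.33). The 2 at p under 0.05, both on the side above 0 where 2.45% of all genes lay at that p, were wipi1, which binds forming autophagosomes, at 4.24, 2.97 and 5.28 CPM in WT and 1.31, 2.09 and 2.4 CPM in mutant EOM (interaction 1.56, p 0.0227), and tbc1d15, a Rab regulator of mitophagy (1.09, p 0.0441). Ligases and regulators of atrophy had 22 of 33 above 0 (median 0.10) and 0 at p under 0.05. Of 36 p53 targets and stress genes 25 lay above 0 (median 0.48), and 4 at p under 0.05 were above 0 (atf3, phlda3, btg2 and gpx4a) and 1 below (tp53inp1, −1.17), against 2.45% and 1.97% of all genes. Chaperones and small heat shock proteins had 17 of 36 above 0 (median −0.04), with bag1, a cofactor of Hsp70, at p 0.0334 (1.04). Of 37 cell cycle and replication genes 16 lay above 0 (median −0.43), and mcm3, of the replication helicase, had −1.66 (p 0.0367). Of 31 myogenic and satellite cell genes 15 lay above 0 (median −0.06), and msc, the transcription factor musculin, was the only one at p under 0.05 (1.63, p 0.0301). Its trunk level was 0.0575 to 0.189 CPM in WT and 0.298 to 0.67 CPM in mutants.

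The lists that held the 2 genes past the threshold were divided in direction. Of 30 tested unconventional myosins, 13 lay above 0 and 17 below, with a median of −0.20. myo7ba shared the direction of myo5b, with 12.8, 8.19 and 11.8 CPM in WT trunk and 15.4, 17.9 and 15.6 CPM in mutant trunk (interaction 1.87, SE 0.65, p 0.0116). Its EOM values were low and overlapped, at 0.595, 0.139 and 0.19 CPM in WT and 0.103, 0.11 and 0.144 CPM in mutants. myo9ab had 2.98, 4.93 and 4.22 CPM in WT and 8.14, 10.5 and 12.8 CPM in mutant EOM, with a trunk difference of −0.02 (interaction −1.39, SE 0.50, p 0.0143). The lubricin, tendon and joint genes, with 13 above 0 and 14 below, are given beside thbs4a.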

How the data were processed

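Messenger RNA of 12 samples was sequenced from poly-A selected, stranded libraries, per the labels. The submitters' processing notes name STAR, DESeq2 and the zebrafish build GRCz11, and their versions are not given in the sources used here. The authors deposited unnormalised counts of reads for each gene in the layout of STAR, which counts reads with a single mapping position. The strand column used held 96.43 to 97.26% of the stranded reads. Summary lines stayed out of library sizes: unmapped reads were 7.08 to 14.82% of a library, multimapping reads 8.28 to 12.51%, reads outside genes 4.43 to 9.24% and ambiguous reads 1.22 to 1.8%. Reads shared by near-identical genes are thus lost or split.

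The members and lists were chosen with earlier results of these data known. Groups and replicate numbers came from the sample titles. Symbols came from a supplied gene name table (29201 of 32520 genes). For 10621 genes the zebrafish symbol was resolved by neighbouring genes, within a window of 25, in the RefSeq annotation of assembly GRCz12tu, used for names only. A check was right for 100% of 2292 genes whose known symbol ends in a or b and is placed in that annotation. It counted only genes that could be resolved, so it does not give the accuracy for the 10621. No coordinates or sequences are given, and 1 gene that the naming rule takes is not reported here.

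All 12 libraries entered 1 fit of 4 group means by edgeR 4.0.16 (R 4.3.3; quasi-likelihood test, TMM, robust, minimum count 10, minimum total 15), with Benjamini-Hochberg adjustment over 20041 genes and a threshold of 0.05. Standard errors are the absolute log2 value over the square root of F. CPM are reads per 1 M reads of a library after TMM. Depth covers counting error only. The fit was also run on simulated counts, where it missed most of the smaller differences placed in them. No result here rests on that run. Named were the desmin genes, fhl2a and fhl2b, every gene past the threshold, the 12 smallest p in each direction among genes with a symbol and a mean of at least 1 CPM, and up to 3 genes a list; other genes at p under 0.05 in a list, and those given beside them, were chosen after their values were seen. Lists are described by counts and medians without a test.

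The replicate numbers were checked for pairing by the correlation, across genes, of deviations from the group means. WT and mutant EOM libraries of the same number had r of 0.429, 0.407 and 0.69, against −0.632 to 0.282 for different numbers. Same-numbered trunk libraries had −0.000997, 0.0556 and 0.031. Different-numbered libraries of mutant EOM and mutant trunk reached 0.417. The labels state no pairing, and deviations from a mean of 3 depend on each other. The EOM pairing was thus read from these data, and fits that use it are alternatives and not separate evidence. Alternatives were DESeq2 1.42.0, limma 3.58.1 (voom, with and without quality weights), other scalings, filters and strand, 3 replicate blocks, each library left out, and both EOM replicates 3 left out, which was chosen after seeing the data.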

Additional observations from a re-analysis of the deposited data

Results flagged for a closer look

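In 2 genes the effect of the genotype differed between the muscles by the test of the difference itself. For prg4a the interaction log2 value, trunk effect minus EOM effect, was 4.40 (SE 0.48, edgeR adjusted p 0.00308). It stayed past the threshold in 23 of 24 alternative fits, with values of 3.93 to 4.57. For myo5b it was 4.71 (SE 0.60, edgeR adjusted p 0.0103), past the threshold in 17 of 24 alternatives, with values of 4.24 to 5.06. Among the alternatives in which myo5b missed it, the adjusted p reached 0.673 in limma-voom with quality weights and 0.699 with library totals alone in edgeR.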

How the results depend on the processing

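The interaction count of 2 genes became 14 with DESeq2 (8 above 0 and 6 below, both prg4a and myo5b among them), 1 with limma-voom, 1 with unstranded counts and 0 with library totals alone in edgeR. It stayed at 2 in limma-voom with quality weights, with myhb (adjusted p 0.0313) in place of myo5b (0.673). DESeq2 fitted the 27797 genes with a read and then applied its own low-count filter, so fewer genes may have entered its adjustment. With library totals alone, 530 genes had an unadjusted p under 0.05 in edgeR's test. That scaling moved the median of all genes from −0.03 to −0.42. On that scale the median of oxidative phosphorylation genes was 0.15. Beside both main genes, the DESeq2 calls with a symbol were myhb, thbs4a, c3a.1, apoda.1, clcn2a, epd, prss59.1, prss59.2, lingo1b, acmsd and pm20d1.1. In prss59.1, prss59.2, lingo1b and acmsd, all below 0, mutant trunk was near the floor, at 0 to 0.103 CPM. For pm20d1.1, above 0, mutant EOM was at 0.0072 to 0.0157 CPM. Leaving out 1 library gave 1 to 3 genes. Each of the 3 fits with a replicate block gave 3 genes, prg4a, myo5b and myhb. With the replicate block in EOM only, a pairing read from these data, myhb had an adjusted p of 0.00412. In that fit 30 genes passed in EOM and 61 in trunk.

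Called genes in EOM (34) became 174 with DESeq2, 18 with quality weights, 7 with library totals, 53 without a filter, 21 with a replicate block within each tissue, 17 without EOM replicate 3 in both genotypes, and 12 to 79 without 1 library. Called genes in trunk (52) became 355, 874, 3 and 92 under the first 4 of these, and 6 to 63 without 1 library. Among the named genes, the block in EOM only changed no call other than that of myhb in the interaction and those of thbs4a, dbx1a and grna in EOM.

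The interactions of prg4a and myo5b kept their direction in all 24 alternatives. Genes called within a muscle were followed one by one only under the block in EOM. The medians of oxidative phosphorylation, fast, slow and cardiac-type, p53 and stress, dystrophin-glycoprotein and lysosome genes kept their sign in all 24 alternatives. Among all 624 list medians over these alternatives, 38 moved by more than the spread between replicates. The cause of these changes was not tested.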
